A study of Mus musculus with 6 samples.

Results

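Choroid endothelial cells (ECs) of the developing and the adult mouse eye were compared for a set of 41 genes that encode the machinery of DNA replication and the enzymes that supply it with deoxynucleotides. The genes were listed by symbol and known role, with earlier results of these data known, and all 41 were found among the 22026 symbols of the RNAseq data. They fell into 8 role groups, which are origin licensing, the MCM2-7 helicase, helicase activation, the clamp and its loader, the polymerases with primase, Okazaki fragment maturation, the RPA complex and nucleotide synthesis. The cells came from 129/B6 mice at postnatal day 5 (P5) and postnatal day 30 (P30), with no treatment named apart from the labelling antibody, and with 3 isolations per age and 7 animals pooled in each isolation. Adult mice were male and female, and for P5 no sex was given in the sources used here. P5 mice were anaesthetized by cooling and received less antibody than P30 mice, so this handling cannot be told apart from age. VE-Cadherin, a junction protein found on ECs, was labelled by an antibody injected into the living animals, the RPE/choroid was dissected and digested, and labelled cells were sorted by flow cytometry and lysed at once, without culture. The comparison of P5 with P30 addresses which transcripts differ between ECs of the immature and the mature choroid.

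DNA is copied once per cell cycle. Before S phase, the origin recognition complex, Cdc6 and Cdt1 load the hexamer of Mcm2 to Mcm7 onto origins, and geminin then holds Cdt1 back so that no origin is loaded again. In S phase, Cdc45 and the GINS complex turn the hexamer into an active helicase, primase and polymerase alpha start each strand, and polymerases delta and epsilon extend it on the PCNA ring. Ribonucleotide reductase, thymidylate synthase, thymidine kinase and dUTPase keep the deoxynucleotide pool filled, and many of these genes are known targets of E2F transcription factors in dividing cells. ECs divide while a vascular bed grows and are mostly quiescent in mature vessels.

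Values are FPKM, fragments scaled for transcript length and sequencing depth, as the authors calculated them per gene, so levels of different genes are compared per length. Gene differences are given as P30 minus P5 on the log2(FPKM + 1) scale, which understates the change of genes with low FPKM. They were tested with limma over the 12481 genes whose mean FPKM reached 5 at P5, at P30 or at both. A gene is described as called where its p, adjusted by Benjamini-Hochberg, was under 0.01 and its mean FPKM + 1 also differed by 2-fold or more. Read depth is unknown, so a value of 0 does not show that a transcript was absent.

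The EC markers Pecam1, Cdh5 and Kdr were at 1243 FPKM or more in all 6 isolations. Summed over 8 EC markers, the FPKM ranged from 18049 to 18522 among P5 isolations and from 24631 to 29965 among P30 isolations. Of the 8, 1 was called, Plvap, with a mean of 4692 FPKM at P5 and 11589.8 FPKM at P30. Emcn was also higher at P30 by mean (3002 and 5523 FPKM) without passing the 2-fold limit, whereas Cdh5, which encodes VE-Cadherin, was lower at P30 (2971 and 1885 FPKM, limma adjusted p = 0.00205), also by less than 2-fold. Several lists of markers of other cells differed between ages. The 7 RPE markers summed to 65.5 to 144 FPKM in the P5 isolations and to 495 to 3796 FPKM in the P30 isolations, with 5 of the 6 tested called higher at P30. The corresponding ranges at P5 and P30 were 2.70 to 9.60 and 36.2 to 349 for 7 photoreceptor markers (2 of 5 tested called higher at P30), 517 to 1798 and 2066 to 6739 for 9 pericyte and smooth muscle markers (1 of 8 tested called higher at P30), and 405 to 832 and 1405 to 3175 for 5 fibroblast markers (1 of 5 called higher at P30). The gene with the highest mean at both ages was Ttr for RPE (41.2 to 89.9 FPKM at P5, 227 to 1966 at P30) and Rgs5 for pericytes (208 to 1042 and 1283 to 4082). For fibroblasts it was Col1a2 at P5 (181 to 343 FPKM, and 253 to 682 at P30, with overlap between ages) and Dcn, the fibroblast marker called, at P30 (66.5 to 152 FPKM at P5 and 820 to 1439 at P30). Among blood cell markers, the 7 haematopoietic genes found summed to 488 to 739 FPKM in P5 isolations and 310 to 783 FPKM in P30 isolations (1 of 5 tested called, higher at P5), 5 erythroid genes to 151 to 484 and 433 to 1394 FPKM, and Cd3e and Klf1 were listed at 0 throughout. For 5 pigment cell genes the sums were 88.6 to 391 FPKM in P5 isolations and 104 to 1054 FPKM in P30 isolations. The part of these other cells in the differences described here was not tested.

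Most replication and nucleotide synthesis genes were higher at P5. Of the 41 genes, 29 were called higher at P5 and 0 higher at P30 by limma, and 12 were not called, whereas over all genes tested 5.82% were called higher at P5 and 5.89% higher at P30. At an unadjusted p under 0.05, the number of the 41 genes with a higher P30 level was 1, Pcna. In 39 genes every P5 isolation was above every P30 isolation, an arrangement found in 33.0% of all genes tested. The opposite arrangement, found in 22.0% of all genes tested, held for Pcna, and the ages overlapped for Orc2. The mean P30 level was 3.65% of the mean P5 level for Pole and 9.03% for Mcm5, but 72.6% for Gins4 and 79.7% for Orc2. The median difference was -1.51 on the log2 scale for the 41 genes and -0.10 for all genes tested. Of the 41 genes, 32 had a mean FPKM of at least 5 at both ages, and 9 passed the minimum through their P5 level alone. These 9 are Cdc6, Gmnn, Mcm10, Cdc45, Gins1, Gins2, Pole, Rrm2 and Tk1, and a gene of this kind can only be called higher at P5. All 9 are among the 29 genes called, beside 44.8% called higher at P5 of all genes that passed through P5 alone. They are also among the 39 genes above, and their median difference was -3.82, beside -1.90 for all genes that passed through P5 alone. Of the 32 others, 20 were called higher at P5, compared with 4.26% of all genes with a mean of at least 5 at both ages. The median difference of these 32 was -1.34, compared with -0.11 for all genes with such means.

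These counts depended on the isolations used. Without P5 replicate 2 or P5 replicate 3, 12 and 13 of the 41 genes were called, and 22 without P5 replicate 1, with no change in direction of any gene. Calls over all genes tested fell as well. Those higher at P5 were 726 with all isolations, and 291, 297 and 427 without P5 replicate 2, 3 and 1. Across 17 alternative settings, 11 genes were called in each, namely Orc6, Cdt1, Mcm2, Mcm5, Mcm6, Cdc45, Pole, Lig1, Rpa2, Rrm1 and Tyms. The calls of the other 18 genes were lost in at least 1 of these settings. Since each isolation is a pool of cells, a smaller share of cycling cells and less RNA per cell cannot be told apart in these values.

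**Figure D1:**
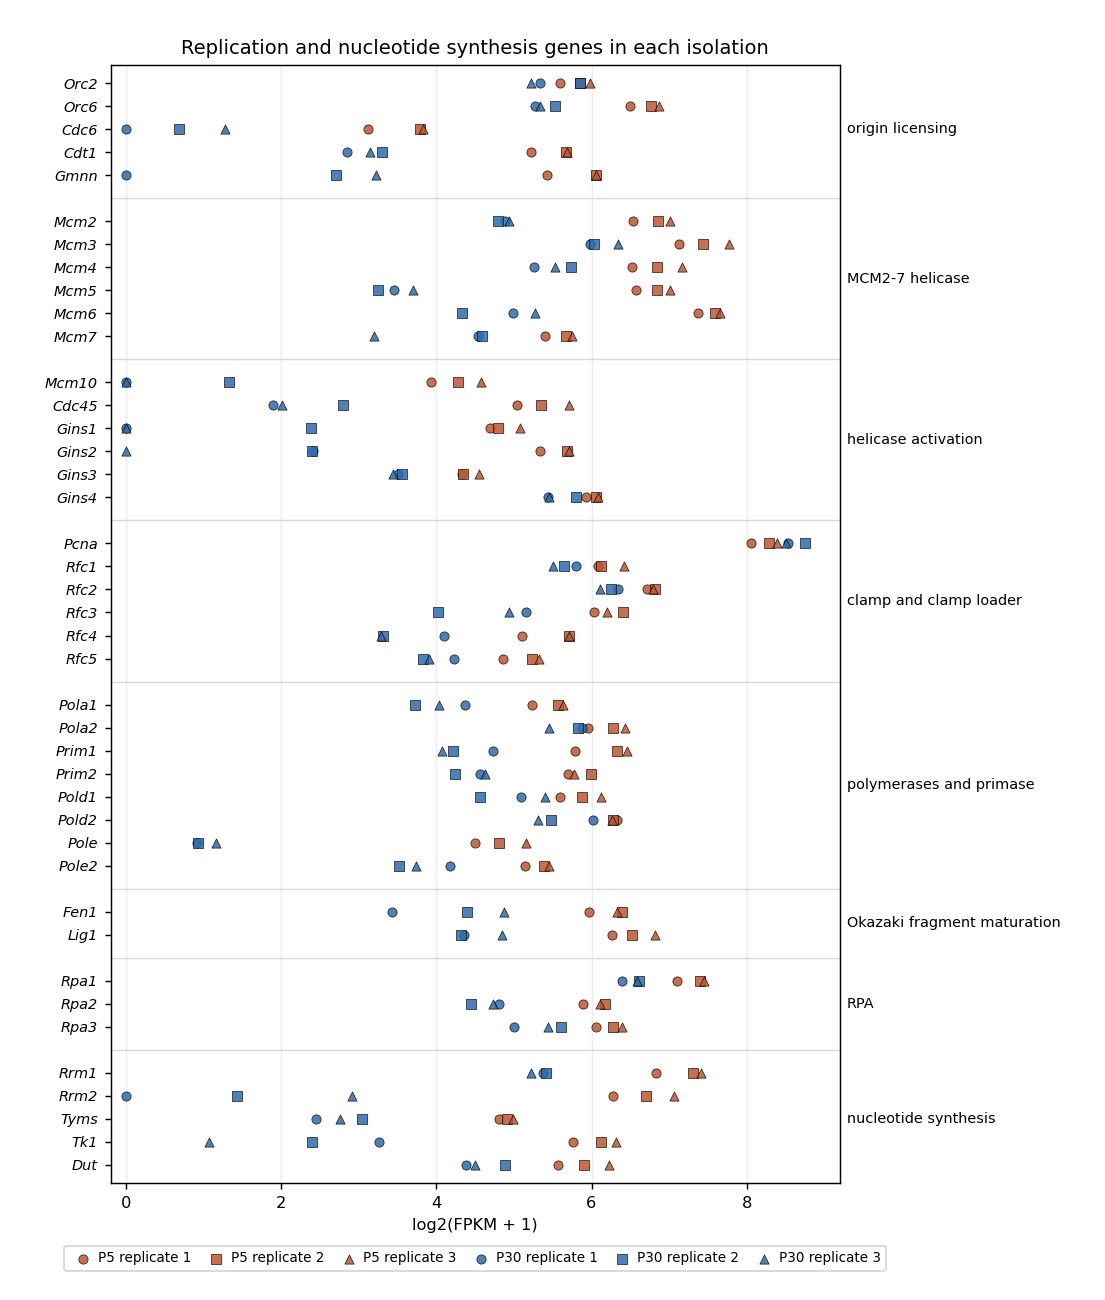
Level of each of the 41 genes in each isolation, on a log2(FPKM + 1) axis, with P5 in orange and P30 in blue and the replicates as circles, squares and triangles, ordered by role group. In 39 genes the P5 isolations lie to the right of all P30 isolations, Pcna shows the opposite order, and 6 genes have at least 1 P30 isolation at 0.

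Summed over the 41 genes, the P5 replicates reached 2693, 3309 and 3614 FPKM and the P30 replicates 1388, 1454 and 1369 FPKM. This is 0.183%, 0.223% and 0.252% of all FPKM at P5, and 0.0847%, 0.0838% and 0.0871% at P30. The sums averaged 3205 ± 469 for P5 and 1404 ± 44.7 for P30 (SD, n = 3 isolations per age). Pcna alone made up 9.25% to 9.80% of the sum at P5 and 26.5% to 29.7% at P30. With Pcna left out, the sums at P30 were 1021, 1023 and 1007, so that the P30 isolations lay close together while the P5 isolations ran from 2429 to 3279.

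**Figure D2:**
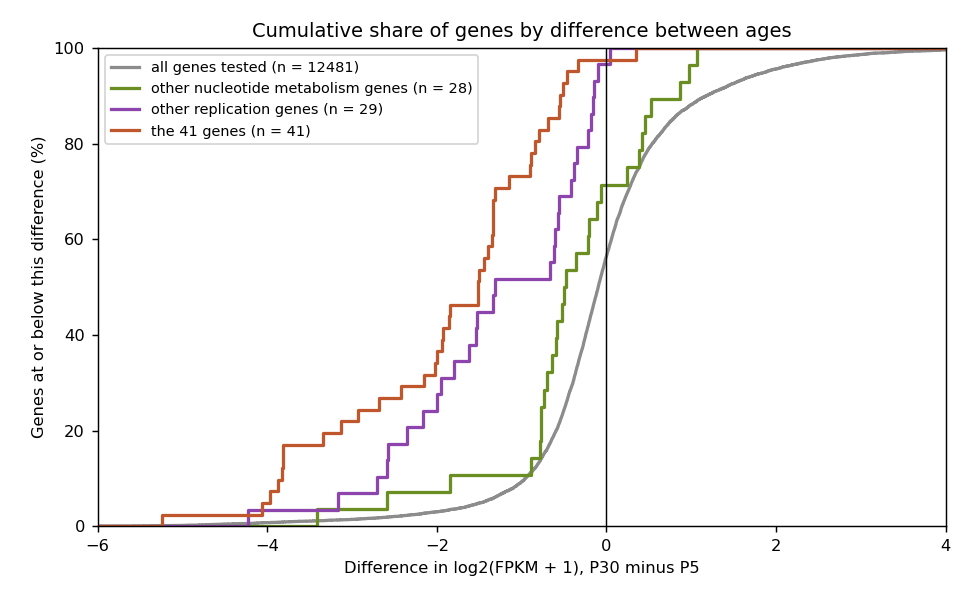
Cumulative share of genes (%) against the difference in log2(FPKM + 1), P30 minus P5, for all 12481 genes tested (grey), 28 other nucleotide metabolism genes (green), 29 other replication genes (purple) and the 41 replication and nucleotide synthesis genes (orange). Medians are -0.10 for all genes tested, -0.49 for the other nucleotide metabolism genes, -1.32 for the other replication genes and -1.51 for the 41 genes.

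Promoter sequence was read because E2F factors are known regulators of many genes of the set. RefSeq promoter windows of the GRCm38.p6 build, with 250 bases before and 50 after each start, were matched to 33 of the 41 genes by symbol (39 windows). No window was matched for Gmnn, Mcm4, Gins1, Gins2, Gins4, Rfc2, Prim2 and Pole. The E2F motif TTNNCGC, with each N either C or G, was searched on both strands, and overlapping matches on opposite strands were counted separately. It was present in 22 of the 39 windows (56.4%), compared with 9.57% of all 32851 windows and 16.7% of the windows of genes tested. More than 1 match was found in 23.1% of the windows of the 41 genes, compared with 1.18% of all windows and 2.4% of those of genes tested. The CHR motif, TTTGAA or TTCGAA, which is known from late cell cycle genes, was in 17.9% of the windows of the 41 genes, between the shares of 19.2% in all windows and 13.6% in windows of genes tested. More than 1 CHR match was found in 4 of the 39 windows (10.3%), compared with 3.84% of all windows and 3.13% of those of genes tested. Each of these 4 windows held 2 matches. TTCGAA reads the same on both strands, so 1 site may have been counted as 2 matches.

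The match was shared by genes with large and with small differences. The 20 genes with an E2F match in any window had a median difference of -1.68 and the 13 without a median of -1.31, and both ranges were wide (-5.23 to -0.56 and -3.82 to 0.35). Of the windows of called genes 61.5% held the motif, and of those of genes not called 46.2%. By gene, 15 of 23 called and 5 of 10 not called had a match. The called genes without a match were Orc6, Mcm2, Mcm10, Cdc45, Rfc5, Tyms, Tk1 and Dut. Those with a match but not called were Mcm7, Gins3, Rfc1, Pold1 and Rpa3, so the sequences printed next do not show this mixture. Shown here are 150 bases, from 120 before to 30 after the start, of 4 genes called higher at P5 with 4, 2, 1 and 1 matches in the stretch, and of Pcna, which had none and was not called. Sequences run 5′ to 3′ on the strand of the gene, and capitals mark each match or run of overlapping matches on either strand.
Mcm6 (GRCm38.p6 chr1:128359676-128359825, minus strand): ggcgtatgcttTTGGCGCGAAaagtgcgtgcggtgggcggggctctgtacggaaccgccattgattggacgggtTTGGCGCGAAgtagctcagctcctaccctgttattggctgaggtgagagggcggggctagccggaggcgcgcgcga
Rfc3 (GRCm38.p6 chr5:151651179-151651328, minus strand): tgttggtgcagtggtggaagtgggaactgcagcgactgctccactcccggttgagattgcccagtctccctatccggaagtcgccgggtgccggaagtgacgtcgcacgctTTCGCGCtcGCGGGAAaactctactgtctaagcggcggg
Rrm1 (GRCm38.p6 chr7:102441575-102441724, plus strand): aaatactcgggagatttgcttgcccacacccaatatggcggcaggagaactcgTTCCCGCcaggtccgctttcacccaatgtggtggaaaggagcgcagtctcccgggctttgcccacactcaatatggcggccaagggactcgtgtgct
Rpa2 (GRCm38.p6 chr4:132768240-132768389, plus strand): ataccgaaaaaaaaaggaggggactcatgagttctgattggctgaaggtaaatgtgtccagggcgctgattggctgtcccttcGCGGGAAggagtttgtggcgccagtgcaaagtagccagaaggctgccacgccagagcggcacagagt
Pcna (GRCm38.p6 chr2:132253151-132253300, minus strand): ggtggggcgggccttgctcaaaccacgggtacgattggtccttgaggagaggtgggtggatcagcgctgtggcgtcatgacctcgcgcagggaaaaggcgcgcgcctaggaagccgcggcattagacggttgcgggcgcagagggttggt
In Mcm6 each of the capital runs holds 1 match per strand, and in Rfc3 the matches on either strand stand close to the start. A match is a description of these letters and was not tested as a binding site, and none in the Pcna window says only that the letters are not in it.

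Origin licensing genes mark DNA for replication, and 4 of 5 were called higher at P5. Of these 4, Cdc6 and Gmnn had passed the minimum FPKM through P5 alone. Cdt1, the loader of the MCM hexamer, was at 36.2, 49.8 and 50.4 FPKM in the P5 replicates, given here and throughout in the order 1, 2 and 3, and at 6.23, 8.86 and 7.85 FPKM in the P30 replicates. Its difference was -2.42 ± 0.22 (limma coefficient ± SE, adjusted p = 0.000366), with all P5 isolations far above all P30 isolations. Cdc6, the ATPase that works with Cdt1 (mm9 chr11:98769115-98785254), was a low gene at 7.69, 12.8 and 13.2 FPKM at P5 and 0, 0.60 and 1.43 FPKM at P30 (-2.92 ± 0.50, limma adjusted p = 0.00417). Gmnn, which encodes geminin, was at 42.1, 65.4 and 65.6 FPKM at P5. At P30 it was listed at 0, 5.55 and 8.33 FPKM (-3.87 ± 0.77, limma adjusted p = 0.00780). On the log2(FPKM + 1) scale its P30 isolations differed more from one another (SD 1.73) than its P5 isolations (SD 0.36). In FPKM the P5 isolations differed more (SD 13.5 at P5 and 4.24 at P30).

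Of the 2 subunits of the origin recognition complex in the set, Orc6 was called and Orc2 was not. Orc6 was at 88.9, 108 and 116 FPKM at P5 and 37.5, 45.2 and 39.3 FPKM at P30 (-1.33 ± 0.14, limma adjusted p = 0.000692). Orc2, a core subunit (mm9 chr1:58519615-58561953), was at 47.2, 56.6 and 62.2 FPKM at P5 and 39.2, 56.8 and 36.2 FPKM at P30. Its ages overlapped, since P30 replicate 2 lay above P5 replicates 1 and 2, and the difference was -0.34 with a 95% interval from -0.81 to 0.13 (limma adjusted p = 0.213). Orc2 shares up to 464 bases of exon with Nif3l1 on the other strand, and the library kit does not mark strand, so reads there cannot be assigned to either gene. Only 2 of the licensing genes, Orc6 and Cdt1, were called without P5 replicate 1, 2 or 3, and the same number with a pseudocount of 0.1.

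The MCM2-7 hexamer is the core of the replicative helicase, and 5 of its 6 subunits were called higher at P5, with all 6 at higher FPKM in every P5 isolation than in any P30 isolation. Mcm5 (mm9 chr8:77633427-77652338) was at 94.1, 114 and 128 FPKM in the P5 replicates and 9.95, 8.49 and 11.9 FPKM in the P30 replicates, an 11.1-fold higher mean at P5. The difference of -3.35 ± 0.18 had the smallest adjusted p of the 41 genes (9.2e-05, limma). Mcm6 (mm9 chr1:130228168-130256233), the most abundant subunit in P5 replicates 1 and 2 and the gene with 4 E2F matches in its promoter stretch, was at 164, 193 and 200.2 FPKM at P5 and 30.6, 19.2 and 37.6 FPKM at P30 (-2.68 ± 0.23, limma adjusted p = 0.000322). Mcm2 fell from 91.8, 114 and 128 FPKM in the P5 isolations to 28.5, 26.7 and 29.6 FPKM in the P30 isolations (-1.93 ± 0.15, limma adjusted p = 0.000246).

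Mcm3 and Mcm4 kept more of their level. Mcm3 was at 139, 172 and 218 FPKM at P5 and 62.1, 64.2 and 79.8 FPKM at P30, and Mcm4 at 90.5, 113 and 142 FPKM at P5 and 37.2, 52.1 and 45.2 FPKM at P30. Their differences were -1.33 ± 0.18 and -1.33 ± 0.20, with limma adjusted p of 0.00181 and 0.00240. Mcm7 was at 41.4, 50.1 and 52.7 FPKM at P5 and at 22.1, 23.1 and 8.16 FPKM at P30, where replicate 3 stood below the other two. It was not called (-1.50 ± 0.37, limma adjusted p = 0.0168), and without P30 replicate 3 the difference was -1.05 with an adjusted p of 0.00525. Mcm7 shares up to 247 bases of exon with Ap4m1 and 64 with Cops6 on the other strand.

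The subunits of the hexamer were spread more widely at P30. The ratio of the highest to the lowest subunit by FPKM was 3.97, 3.85 and 4.14 in the P5 replicates, with Mcm7 the lowest in each. In the P30 replicates it was 6.24, 7.56 and 9.78, with Mcm3 the highest in each and Mcm5 the lowest in replicates 1 and 2. These ratios are a description and were not tested. Without P5 replicate 2, 3 of the 6 subunits were called.

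Of the helicase activation genes, 4 of 6 were called higher at P5, and all 4 had passed the minimum FPKM through P5 alone. Cdc45, which travels with the hexamer at the fork, was at 31.8, 39.9 and 51.2 FPKM at P5 and 2.72, 5.97 and 3.02 FPKM at P30 (-3.13 ± 0.32, limma adjusted p = 0.000529). Mcm10, which acts when the helicase fires, was at 14.2, 18.4 and 22.9 FPKM at P5 and listed at 0, 1.52 and 0 FPKM at P30 (-3.82 ± 0.49, limma adjusted p = 0.00139). For both genes each P5 isolation was above each P30 isolation by a wide margin. Cdc45 shares up to 164 bases of exon with Ufd1l on the other strand.

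The 4 GINS subunits form 1 complex in equal numbers, yet their transcripts differed in how far they were apart between ages. Gins1 (mm9 chr2:150731136-150757016) was at 24.8, 26.8 and 32.9 FPKM at P5 and listed at 0, 4.21 and 0 FPKM at P30. Gins2 was at 39.4, 50.3 and 51.5 FPKM at P5 and listed at 4.33, 4.29 and 0 FPKM at P30. Both were called higher at P5, with differences of -4.06 ± 0.65 and -3.97 ± 0.63 and limma adjusted p of 0.00333 and 0.00319. Gins3 was at 19.1, 19.2 and 22.4 FPKM at P5 and 10.3, 10.8 and 9.86 FPKM at P30, which passed the limit on p but not that on fold (-0.90 ± 0.19, limma adjusted p = 0.00977). Gins4, the most abundant subunit in all 6 isolations, was at 59.7, 65.7 and 67.0 FPKM at P5 and 42.3, 54.8 and 42.6 FPKM at P30 (-0.46 ± 0.14, limma adjusted p = 0.0392). Gins2 overlaps up to 2758 bases of an exon of Gse1 on the other strand, and Gse1 was at a mean of 85.6 FPKM at P5 and 115 FPKM at P30. Without P5 replicate 1, 2 or 3, 2, 1 and 1 of the 6 helicase activation genes were called, and 2 with a pseudocount of 0.1.

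**Figure D3:**
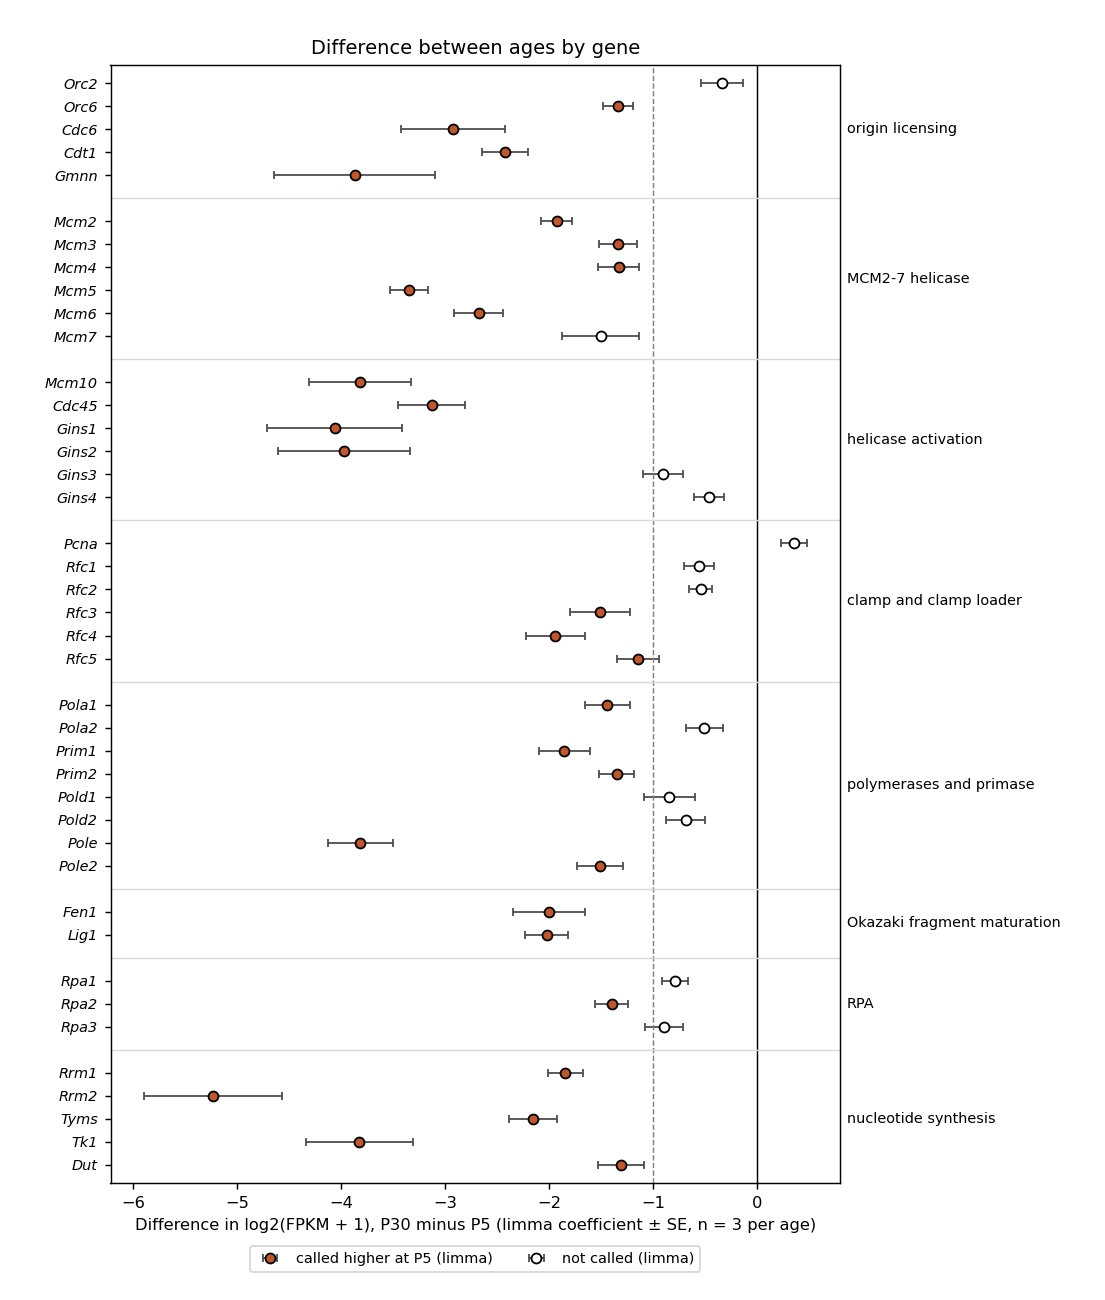
Difference between ages for each of the 41 genes, P30 minus P5 on the log2(FPKM + 1) scale, as limma coefficient with SE bars (n = 3 isolations per age), with filled points for the 29 genes called higher at P5 and open points for the 12 not called. The solid line marks no difference and the dashed line -1, Rrm2 lies farthest left at -5.23, and Pcna is the one gene to the right of 0.

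The clamp and its loader held the one gene of the set with a higher level at P30, and 3 of the 6 genes were called. Pcna, the ring that tethers polymerases to DNA and a common marker of proliferating cells (mm9 chr2:132074898-132079050), was the most abundant of the 41 genes in every isolation. It was at 264, 312 and 334 FPKM in the P5 replicates and at 368, 431 and 362 FPKM in the P30 replicates. Every P30 isolation was thus above every P5 isolation, and the difference of 0.35 ± 0.12 was not called (95% interval 0.06 to 0.64, limma adjusted p = 0.0582). Its promoter window, held no E2F match. The difference stayed above 0 under all 17 alternative settings, between 0.17 and 0.45. The mm9 annotation names the pseudogenes Pcna-ps1 and Pcna-ps2, for which the files hold no rows of their own, so Pcna is uncertain in so far as reads may be shared with such copies.

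The loader RFC opens the ring. Its small subunits Rfc3, Rfc4 and Rfc5 were called higher at P5. Rfc4 was at 33.4, 51.2 and 51.5 FPKM at P5 and 16.1, 8.96 and 8.80 FPKM at P30 (-1.94 ± 0.29, limma adjusted p = 0.00237), and it shares up to 186 bases of exon with Eif4a2 on the other strand. Rfc3, with 2 E2F matches near its start, was at 64.7, 83.9 and 72.5 FPKM at P5 and 34.7, 15.3 and 29.5 FPKM at P30 (-1.51 ± 0.29, limma adjusted p = 0.00670). Rfc5 was at 27.9, 36.6 and 38.9 FPKM at P5 and 17.6, 13.2 and 14.01 FPKM at P30 (-1.15 ± 0.20, limma adjusted p = 0.00479), and it shares up to 499 bases with Wsb2.

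Rfc1 and Rfc2 differed less between ages. Rfc2, the most abundant RFC subunit in each isolation, was at 105, 112 and 110.2 FPKM at P5 and 80.4, 75.3 and 68.3 FPKM at P30, under the 2-fold limit (-0.54 ± 0.11, limma adjusted p = 0.00798). Rfc1, the large subunit, was at 66.6, 68.7 and 84.7 FPKM at P5 and 54.6, 49.2 and 44.5 FPKM at P30 (-0.56 ± 0.14, limma adjusted p = 0.0209). The 6 genes of the clamp and its loader summed to 561, 665 and 692 FPKM at P5 and to 571, 593 and 527 FPKM at P30, so this was the one role group whose sums overlapped between ages. Pcna made up 368, 431 and 362 FPKM of the P30 sums. Each of the 5 RFC genes was higher in every P5 isolation than in any P30 isolation. Of the 3 calls, 1 was left without P30 replicate 3 or P5 replicate 1 and 0 without P5 replicate 2 or 3, and 1 was left with quantile normalization or with a replicate block.

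The 8 polymerase and primase genes were all at higher FPKM in every P5 isolation than in any P30 isolation, and 5 were called. Of these 5, Pole had passed the minimum FPKM through P5 alone. Pole, the catalytic subunit of polymerase epsilon (mm9 chr5:110715325-110766493), was at 21.6, 26.9 and 34.5 FPKM at P5 and 0.880, 0.910 and 1.24 FPKM at P30, a 27.4-fold higher mean at P5 (-3.82 ± 0.31, limma adjusted p = 0.000271). Its partner subunit Pole2 was at 34.3, 40.8 and 42.6 FPKM at P5 and 17.1, 10.4 and 12.4 FPKM at P30 (-1.51 ± 0.22, limma adjusted p = 0.00215). Pole was thus the lowest of the polymerase genes at both ages, and Pole2 exceeded it more at P30.

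Primase makes the RNA primers, and both of its subunits were called higher at P5. Prim1, the catalytic subunit, was at 54.1, 79.4 and 87.0 FPKM at P5 and 25.4, 17.6 and 15.8 FPKM at P30 (-1.85 ± 0.24, limma adjusted p = 0.00150). Prim2 was at 51.0, 62.8 and 53.9 FPKM at P5 and 22.6, 17.8 and 23.7 FPKM at P30 (-1.35 ± 0.17, limma adjusted p = 0.00117). Of the polymerase alpha subunits that extend the primers, the catalytic Pola1 was called higher at P5, with 36.5, 46.6 and 48.7 FPKM at P5 and 19.6, 12.2 and 15.4 FPKM at P30 (-1.44 ± 0.22, limma adjusted p = 0.00257). The accessory Pola2 was not called, with 61.1, 76.6 and 85.7 FPKM at P5 and 57.9, 55.5 and 42.7 FPKM at P30 (-0.51 ± 0.18, limma adjusted p = 0.0566), and P5 replicate 1 lay only just above P30 replicate 1.

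Neither gene of polymerase delta, which extends the lagging strand, was called. Pold1, the catalytic subunit, was at 47.3, 57.6 and 68.5 FPKM at P5 and 33.1, 22.7 and 41.2 FPKM at P30 (-0.84 ± 0.24, limma adjusted p = 0.0295). Pold2 was nearly even among the P5 isolations at 79.3, 76.7 and 75.5 FPKM and more spread at P30, with 63.6, 43.6 and 38.5 FPKM (-0.69 ± 0.19, limma adjusted p = 0.0254). Without P5 replicate 2, Pole alone of the 8 genes was called, and 2 were called without P5 replicate 3.

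The 2 genes of Okazaki fragment maturation were called higher at P5. Lig1, the DNA ligase that seals the fragments, was at 75.7, 91.2 and 111 FPKM at P5 and 19.5, 18.9 and 27.9 FPKM at P30 (-2.03 ± 0.21, limma adjusted p = 0.000539). Fen1, the nuclease that trims their flaps, was at 61.8, 83.1 and 79.2 FPKM at P5 and 9.72, 20.04 and 28.3 FPKM at P30 (-2.0 ± 0.35, limma adjusted p = 0.00471). P30 replicate 1 was the lowest of the Fen1 values and P30 replicate 3 the highest of that age. Lig1 was the 1 gene of the pair called without P30 replicate 2 and without each P5 replicate. The annotation places up to 247 bases of Lig1 exon over 6330408A02Rik, and up to 75 bases of Fen1 over 1810006K21Rik and 1909 over Gm10143, all on the other strand.

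RPA coats single-stranded DNA in replication and also in repair. Rpa2, the middle subunit, whose promoter stretch held 1 E2F match, was at 58.4, 71.3 and 67.8 FPKM at P5 and 26.9, 20.8 and 25.5 FPKM at P30 and was called higher at P5 (-1.40 ± 0.16, limma adjusted p = 0.000772). Rpa1, the large subunit and the most abundant at both ages, was at 137, 167 and 174 FPKM at P5 and 83.2, 96.5 and 94.8 FPKM at P30 (-0.79 ± 0.13, limma adjusted p = 0.00349). Rpa3, the small subunit, was at 65.9, 76.8 and 82.8 FPKM at P5 and 31.1, 47.9 and 42.2 FPKM at P30 (-0.89 ± 0.18, limma adjusted p = 0.00879). Rpa1 and Rpa3 passed the limit on p but not the 2-fold limit, and 2 of the 3 subunits were called without P30 replicate 2.

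The enzymes of deoxynucleotide synthesis were all called higher at P5 (5 of 5). Of these, Rrm2 and Tk1 had passed the minimum FPKM through P5 alone. Rrm2, the regulated small subunit of ribonucleotide reductase (mm9 chr12:25393106-25399011), was at 76.2, 103 and 133 FPKM in the P5 replicates and was listed at 0, 1.69 and 6.52 FPKM in the P30 replicates. Its difference, -5.23 ± 0.66, was the farthest from 0 of the 41 genes (limma adjusted p = 0.00130). Rrm1, the large subunit (mm9 chr7:109590209-109618285), also with 1 E2F match, was at 113, 157 and 169 FPKM at P5 and at 40.7, 41.8 and 36.2 FPKM at P30 (-1.84 ± 0.17, limma adjusted p = 0.000382). Rrm2b, the alternative small subunit that is known to serve cells outside S phase and is not one of the 41 genes, was at 40.5, 31.9 and 34.7 FPKM at P5 and 42.3, 48.7 and 49.9 FPKM at P30 (0.39 ± 0.15, limma adjusted p = 0.0740). At P5 each isolation had more Rrm2 than Rrm2b, and at P30 each had less.

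Of the thymidylate enzymes, Tk1, the cytosolic thymidine kinase (mm9 chr11:117676840-117687406), was at 53.2, 68.8 and 78.3 FPKM at P5 and 8.61, 4.27 and 1.09 FPKM at P30 (-3.82 ± 0.51, limma adjusted p = 0.00165). Tyms, thymidylate synthase, was at 26.9, 29.1 and 30.9 FPKM at P5 and 4.47, 7.23 and 5.74 FPKM at P30 (-2.15 ± 0.23, limma adjusted p = 0.000660). The pseudogene Tyms-ps has a row of its own, at 18.4, 18.1 and 23.5 FPKM at P5 and 2.66, 6.83 and 9.04 FPKM at P30, so the split of reads between the copies is uncertain. Tk1 shares up to 83 bases of exon with Afmid on the other strand. Dut, the dUTPase that keeps uracil out of DNA, was at 46.3, 58.9 and 73.5 FPKM at P5 and 19.8, 28.6 and 21.6 FPKM at P30 (-1.31 ± 0.22, limma adjusted p = 0.00381). Without P5 replicate 2, 3 of the 5 genes were called, and 2 without P5 replicate 3.

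Partners of a complex or reaction were then set against each other within an isolation, as log2 ratios of FPKM + 1, which do not depend on how an isolation is scaled except through the added 1. Of 9 ratios, 7 did not overlap between ages. The share of other gene pairs whose ratios do so is not given here. Among single genes tested, 33.0% were higher in every P5 isolation and 22.0% were higher in every P30 isolation. Rrm2, Gmnn and Pole, which enter several of the 7, had passed the minimum FPKM through P5 alone. With 3 isolations per age the exact two-sided permutation test cannot go below p = 0.1, which these 7 reached (0.129 after Benjamini-Hochberg adjustment over the 9), so no ratio could pass a limit of 0.05. The ratio of Rrm2 to Rrm2b averaged 1.49 ± 0.53 (SD, n = 3) at P5 against -4.13 ± 1.34 at P30, and that of Rrm2 to Rrm1 was -0.50 ± 0.14 at P5 and -3.89 ± 1.54 at P30. Both rest on Rrm2 values of 0, 1.69 and 6.52 FPKM at P30, so their size depends on the added 1. In P30 replicate 1, where Rrm2 was listed at 0, the ratio to Rrm2b was -5.44. The ratio of Pole2 to Pole was 0.51 ± 0.19 at P5 and 2.81 ± 0.40 at P30.

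The other ratios moved less. Orc6 to Orc2 averaged 0.90 ± 0.02 (SD, n = 3) at P5 against -0.09 ± 0.22 at P30, and Pola2 to Pola1 was 0.75 ± 0.05 at P5 and 1.68 ± 0.37 at P30. Rfc1 to the median of Rfc2 to Rfc5 was 0.35 ± 0.24 at P5 and 1.31 ± 0.36 at P30. Gmnn to Cdt1 was 0.32 ± 0.10 at P5 and -1.12 ± 1.54 at P30, with -2.85 in P30 replicate 1, where Gmnn was listed at 0, and -0.59 and 0.08 in P30 replicates 2 and 3. With a pseudocount of 5 in place of 1, the age difference was -2.13 in place of -3.39 for the ratio of Rrm2 to Rrm1, 1.14 in place of 2.30 for the ratio of Pole2 to Pole, and -0.80 in place of -1.45 for the ratio of Gmnn to Cdt1, which was -2.52 with a pseudocount of 0.1 and -0.58 without P30 replicate 1. Prim1 to Prim2 and Pold1 to Pold2 overlapped between ages, with differences of -0.50 (exact permutation p = 0.2) and -0.15 (exact permutation p = 0.8).

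**Figure D4:**
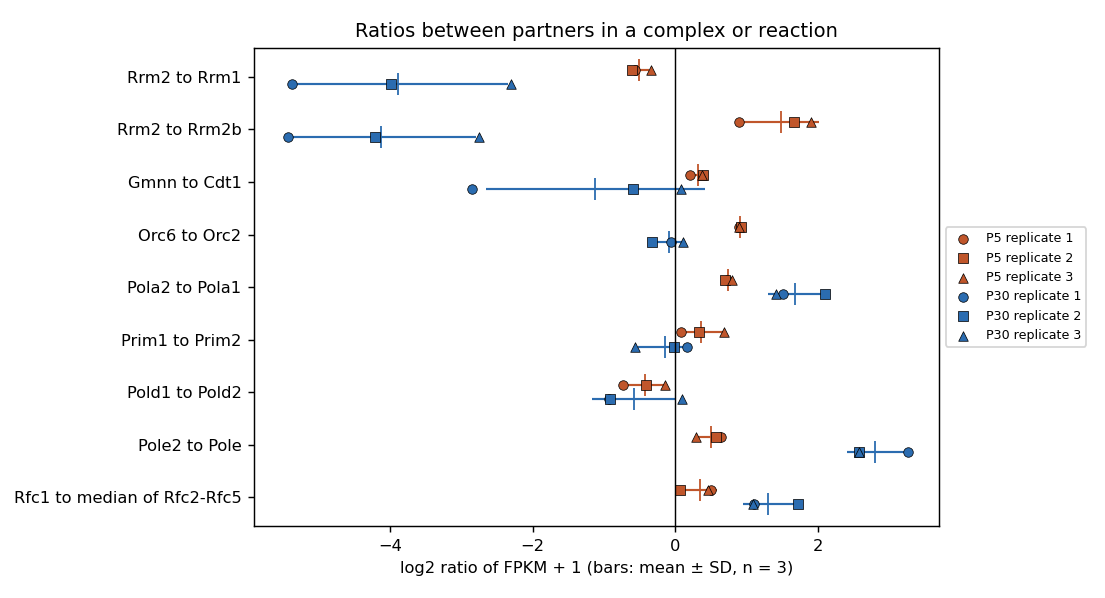
Log2 ratio of FPKM + 1 between partners of a complex or reaction in each isolation, with P5 in orange and P30 in blue, the replicates as circles, squares and triangles, and bars for mean ± SD (n = 3). The P5 isolations lie apart from the P30 isolations in 7 of the 9 ratios, with no share of other gene pairs given. Rrm2 to Rrm2b turns from 1.49 at P5 to -4.13 at P30, a size that depends on the added 1.

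Other replication genes, listed by their known role and not among the 41, gave calls in the same direction. Of 30 listed, 29 were in the files and tested, 14 were called higher at P5 and 0 higher at P30 by limma, and their median difference was -1.32. Of the 29, 7 reached the minimum FPKM through P5 alone and 6 of these are among the 14 called, beside 44.8% of all genes that passed in this way. Of the other 22, 8 were called higher at P5, with a median difference of -0.59, compared with 4.26% and -0.11 for all genes at or above the minimum at both ages. An unadjusted p under 0.05 was reached by 0 of them with a higher P30 level. Of the genes described next, all but Dbf4 passed through P5 alone. Clspn, the checkpoint adaptor claspin, was at 23.4, 27.7 and 34.7 FPKM at P5 and 0.810, 1.11 and 0 FPKM at P30 (-4.23 ± 0.39, limma adjusted p = 0.000393). Dbf4, the activator of the Cdc7 kinase that fires origins, was at 53.9, 76.3 and 93.3 FPKM at P5 and 17.2, 9.01 and 9.05 FPKM at P30 (-2.59 ± 0.30, limma adjusted p = 0.000895). Orc1, the largest subunit of the origin recognition complex, was low at P5 (9.09, 7.65 and 10.1 FPKM) and lower at P30 (0, 1.02 and 0.740 FPKM), with a difference of -2.70 ± 0.47 (limma adjusted p = 0.00466). Dscc1 and Chtf18, both of an alternative clamp loader, differed by -3.16 ± 0.54 and -2.58 ± 0.41 (limma adjusted p of 0.00441 and 0.00318). Without P5 replicate 1, 2 or 3, the count of 14 became 8, 4 and 4.

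Other nucleotide metabolism genes, which also serve RNA synthesis and cells that do not divide, lay on both sides of 0. Of 28 genes tested, 3 were called higher at P5, 1 higher at P30 and 24 were not called, beside shares of 5.82% and 5.89% over all genes tested. The call at P30 is thus near its background share, and 2 of the 3 calls at P5 are of genes that passed the minimum FPKM through P5 alone. Among all genes that passed in this way, 44.8% were called higher at P5. The list had 20 genes below and 8 above 0 and a median difference of -0.49. Of those called higher at P5, Dck acts on a deoxynucleoside and Dctd on a deoxynucleotide. Tk2 and Dguok, also deoxynucleoside kinases, were higher at P30 without being called. Their differences were 0.86 ± 0.17 and 0.53 ± 0.14 (limma adjusted p of 0.00718 and 0.0230). Dck, deoxycytidine kinase, was at 75.6, 99.5 and 106 FPKM at P5 and 18.9, 26.1 and 31.9 FPKM at P30 (-1.85 ± 0.22, limma adjusted p = 0.000999), and Dctd, dCMP deaminase, differed by -3.42 ± 0.52 (limma adjusted p = 0.00262). Impdh1, an enzyme of guanine nucleotide synthesis, was higher at P30, with 274, 301 and 241 FPKM at P5 and 625, 454 and 655 FPKM at P30 (1.07 ± 0.16, limma adjusted p = 0.00248). The call of Impdh1 was lost, by the fold limit or the p limit, without P30 replicate 3 (0.97, adjusted p = 0.00627), P5 replicate 1 (1.08, adjusted p = 0.0123) or P5 replicate 3 (0.99, adjusted p = 0.0154) and with quantile normalization (0.92, adjusted p = 0.00490).

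The P5 isolations were ordered in the same way across nearly all of the 41 genes. P5 replicate 1 was the lowest of the 3 in 40 genes, against 30.8% of all genes tested, and P5 replicate 3 was the highest in 35, against 32.9%. The median difference of P5 replicate 3 minus P5 replicate 1 was 0.40 on the log2 scale over the 41 genes, with single genes from -0.07 to 0.80, and -0.03 over all genes tested. Several marker lists ran the other way. In P5 replicates 1, 2 and 3 the summed FPKM was 1798, 956 and 517 for pericyte and smooth muscle markers, 391, 104 and 88.6 for pigment cell markers and 739, 676 and 488 for haematopoietic markers. RPE and erythroid markers were also highest in P5 replicate 1 (144 and 484 FPKM) and lowest in P5 replicate 2 (65.5 and 151 FPKM), and fibroblast and photoreceptor markers were highest in P5 replicate 3. Their part in the order of the P5 isolations was not tested.

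At P30 no such order was seen, since replicates 1, 2 and 3 were the lowest in 15, 11 and 13 of the 41 genes, with ties at 0 in the other two, while pericyte and smooth muscle markers summed to 2066, 6739 and 3926 FPKM. With P5 replicate 1 and P30 replicate 2 left out together, the isolations with the highest sum of these markers at their age, 14 of the 41 genes were called higher at P5, the setting being chosen after the data had been seen. In that setting 261 of all genes were called higher at P5, compared with 726 when all isolations were used.

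**Figure D5:**
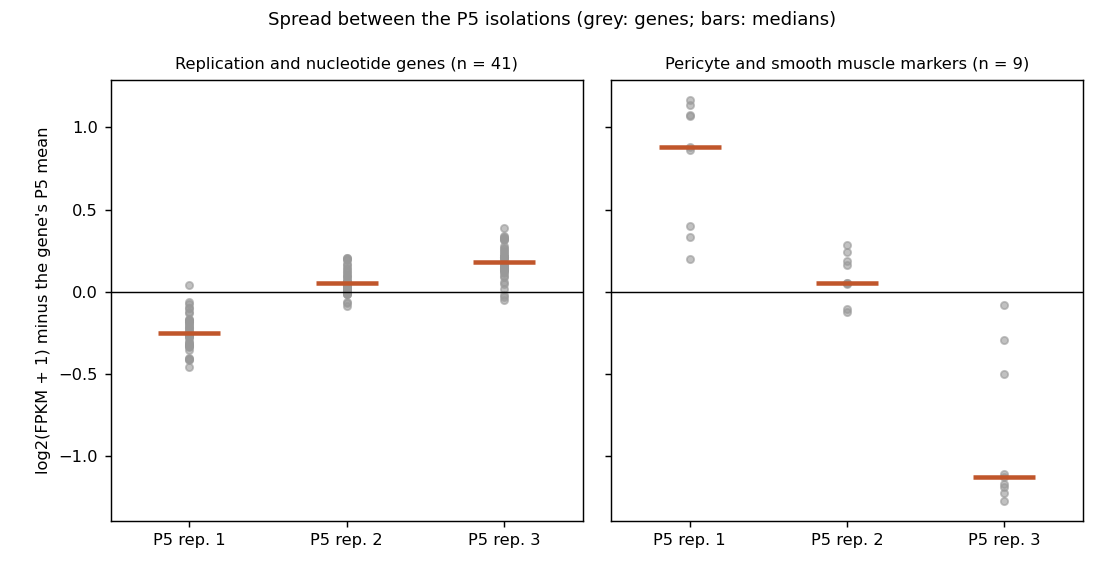
Level of each gene in the P5 isolations as log2(FPKM + 1) minus that gene's P5 mean, for the 41 replication and nucleotide synthesis genes (left) and 9 pericyte and smooth muscle markers (right), with grey points for genes and orange bars for medians. P5 replicate 1 is the lowest for 40 of the 41 genes at left and has the highest summed marker level at right (1798 FPKM, against 956 and 517).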

How the data were processed

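RNA of choroid ECs was sequenced in 6 samples, grouped by title into 3 isolations each of P5 and P30. Reads were mapped by the authors to mm9 (TopHat), and FPKM from CuffLinks, normalized for GC content and upper quartile, was deposited per gene symbol. CASAVA 1.8.2 and FastQC stand in the submitters' processing notes, and the annotation is not given in the sources used here. The read counts that the authors tested were not used here. Low values did not stand on common steps (at most 5.04% of low genes in a bin of 0.05 log2), so depth is unknown. The log2(FPKM + 1) values of genes whose mean FPKM reached 5 at either age went into limma 3.58.1 (R 4.3.3, lmFit, then eBayes with trend, no block), which was checked on simulated data. Ratios were compared in Python 3.11.15 by exact two-sided permutation. Genes were placed with GENCODE for mm9, and promoters with RefSeq on GRCm38.p6. All 41 genes could be named, and of the other pathway lists the called genes with the 5 largest differences, plus Rrm2b and, beside Dck, Tk2 and Dguok. The 41 genes, lists and tests were chosen with earlier results of these data known. Ticrr and Ly6g were not matched. Some genes that the rule would name are not reported here. Alternatives were other pseudocounts, minimum FPKM values and scalings, no trend, a replicate block, another fold, a longer motif and each isolation left out in turn.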

Additional observations from a re-analysis of the deposited data

How the results depend on the processing

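No member of the set changed direction under any of the 17 alternative settings, and 0 of the 41 genes were called higher at P30 in any of them. The number called higher at P5 was 29 with all isolations and ranged from 12 to 29 when each isolation was left out in turn. Over the same settings, the calls higher at P5 ranged from 2 to 4 in origin licensing, 3 to 6 in the MCM2-7 helicase, 1 to 4 in helicase activation, 0 to 3 in the clamp and clamp loader, 1 to 5 in the polymerases and primase, 1 to 2 in Okazaki fragment maturation, 1 to 2 in RPA and 2 to 5 in nucleotide synthesis. They ranged from 4 to 14 in the other replication genes and from 2 to 3 in the other nucleotide metabolism genes, in which 0 to 1 gene was called higher at P30. Over all genes, between 291 and 754 were called higher at P5 and between 396 and 849 higher at P30. With P5 replicate 1 and P30 replicate 2 left out together, chosen after the data had been seen, the calls higher at P5 were 14 of the 41 genes, 2 in origin licensing, 0 in the clamp and clamp loader, 1 in the polymerases and primase, 1 in Okazaki fragment maturation, 2 in nucleotide synthesis, 4 in the other replication genes and 1 in the other nucleotide metabolism genes, with 261 and 277 of all genes higher at P5 and P30.

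A pseudocount of 0.1 left 25 of the 41 genes called, with 2 in origin licensing and 2 in helicase activation. No trend left 26, with 1 in Okazaki fragment maturation. Quantile normalization left 27, with 1 in the clamp and clamp loader and 0 of the other nucleotide metabolism genes higher at P30. Median scaling moved the median difference of all genes from -0.10 to -0.01 and left 28 called. The cause of these losses was not tested. Samples with the same replicate number did not deviate together (correlations of -0.06, -0.09 and -0.03), so no pairing by number was seen. Whether isolations were handled together is not known from these values. The replicate block gave 25 of the 41 genes, 1 in the clamp and clamp loader, and 524 and 585 of all genes against 726 and 735, and it lost the calls of Cdc6, Rfc3, Rfc5 and Pola1. The ratio of Pold1 to Pold2 was -0.15 and ranged from -0.49 to 0.0165 when each isolation was left out in turn, above 0 without P30 replicate 1 (0.0165) and without P30 replicate 2 (0.0126), and the other 8 ratios kept their direction in all settings. The E2F motif with 1 more leading T was in 30.8% of the windows of the 41 genes and 2.26% of all windows. With 3 isolations per age and no depth, values near 0 at P30 have no counting error and limit how far a fold can be read.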
